A study of Mus musculus with 22 samples.

Results

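Interferon-stimulated genes are the genes that cells switch on when interferon binds its receptors, and 36 of them were followed here across mouse B-lineage lymphomas. They were taken by name: the listed genes were looked up in the count matrix after Ensembl identifiers had been paired with mouse symbols, and all 36 were found among 52636 gene rows. The lookup itself used no measured value, but the list was chosen with earlier results of these data known. The matrix holds 22 lymphoma libraries from 15 mice of a mixed 129/C57Bl6 strain, 14 of them from primary tumours and 8 from tumours grown in NSG mice, which lack T, B and NK cells and keep myeloid, erythroid and stromal cells. Every mouse carried p53fl/fl, floxed alleles of the tumour suppressor p53, and Mb1Cretg/+, a Cre recombinase driven by the B-lineage gene Mb1 (Cd79a).

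The MCL-like transplants (6 libraries from tumours of 4 mice) and the MCL-like primaries (4 libraries, 4 mice) had the genotype R26-Ccnd2tg/tg;p53fl/fl;Mb1Cretg/+, in which the Rosa26 locus carries a transgene for cyclin D2, a driver of the G1 cell cycle phase. The same genotype was given for the Ccnd2 non-MCL transplants (2 libraries, 1 mouse) and the Ccnd2 non-MCL primaries (3 libraries, 3 mice). The p53-only primaries (7 libraries, 6 mice) had p53fl/fl;Mb1Cretg/+ without the transgene. MCL-like and non-MCL are the submitters' immunophenotype labels, after mantle cell lymphoma. The titles of the 6 MCL-like transplant libraries read non-MCL where their immunophenotype field reads MCL-like, and the field was followed. The transplant libraries all came from spleen, as did most primaries. MCL-like primary replicate 1 was a mesenteric lymphoma, Ccnd2 non-MCL replicate 1 and p53-only replicate 4 were mediastinal, and p53-only replicate 6 was called a thymoma. The tumour type of p53-only replicates 5 and 7 was given only as lymphoma. No age was given.

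Type I interferons bind a receptor of the subunits Ifnar1 and Ifnar2, whose kinases Jak1 and Tyk2 pass the signal on. Stat2 then joins Irf9 in a complex that binds a DNA element called the ISRE, and the genes that carry it rise together within hours. Interferon gamma acts through its receptor subunit Ifngr1 on another element, the GAS, and shares many of the same targets. The 36 genes cover the arms of the response: signal carriers and feedback genes (Stat2, Irf9, Irf7, Usp18), sensors of viral RNA or DNA (Ddx58, Ifih1, Dhx58, Zbp1, the Oas family), effectors that block viral entry, replication or translation (Ifit, Mx, Rsad2, Bst2, Eif2ak2, Isg20, Isg15), and guanylate-binding, ubiquitin-ligase and ADP-ribosylating proteins (Gbp2, Gbp3, Herc6, Parp9, Parp14, Dtx3l). In B cells and their tumours many of these genes are also expressed at a low tonic level without infection.

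Promoter sequences of RefSeq on GRCm38.p6, from 250 bases before to 50 after each gene start, were at hand for 27 of the 36 genes. The core of the ISRE was searched as GAAA, then NN, then GAAA, and the GAS as TTCNNNGAA, on both strands, where N is any base. Of the 27 promoters, 14 (51.9%) held the ISRE core, against 1079 of 27025 genes with a promoter in the table (3.99%). The GAS letters were in 6 of the 27 (22.2%), against 2582 of the 27025 (9.55%). The windows below are a selection from the genes with a match. They are on each gene's own strand and 5′ to 3′, with the matching letters in capitals. An ISRE match that reads TTTC, NN, TTTC lies on the opposite strand, and overlapping matches run together. Among members named in the results, the promoters of Oasl2, Herc6, Irf9, Irf7, Dtx3l, Ifi44, Oasl1 and Sp100 held neither set of letters. Variant letters and sites outside the window were not searched, so these genes are not shown to lack either element. Those of Zbp1, Parp14, Rtp4, Mx1 and Usp18 were among the promoters not at hand. The Isg15 window is chr4:156200871-156200900 (minus strand), with its first matching base 78 bases before the start, and holds 3 overlapping matches. The others are Ddx58 at chr4:40239804-40239833 (minus), Gbp3 at chr3:142559992-142560021 (plus, 2 matches), Ifit1 at chr19:34640794-34640823 (plus), Rsad2 at chr12:26456553-26456582 (minus), Bst2 at chr8:71537580-71537609 (minus, 2 matches) and Stat2 at chr10:128270266-128270295 (plus). Isg20 held the GAS letters and no ISRE core, in chr7:78913341-78913369 (plus).
Isg15: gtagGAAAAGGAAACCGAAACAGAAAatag
Ddx58: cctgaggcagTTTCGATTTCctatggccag
Gbp3: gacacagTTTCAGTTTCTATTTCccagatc
Ifit1: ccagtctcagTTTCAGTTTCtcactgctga
Rsad2: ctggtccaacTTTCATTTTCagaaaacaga
Bst2: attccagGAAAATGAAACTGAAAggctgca
Stat2: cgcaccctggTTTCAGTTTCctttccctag
Isg20: ctggggagggTTCTTGGAAtttttccttt
These letters describe the windows only, and no binding was measured.

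Levels are given in CPM, the count of a gene per 1000000 counts of its library. Each read comes from the 3′ end of a transcript, so CPM was not divided by gene length and a level can be set against that of another gene. Totals ran from 2693399 to 8146613 counts, and a count of 0 allows a level of up to 0.368 to 1.11 CPM (3 counts, counting error only). Listed B cell markers summed to between 2058 and 8624 CPM in every library. Marker sums of other cell types differed between the groups and are given beside the results they move with.

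The 36 genes summed to between 679 and 1583 CPM in MCL-like transplants (median 1018) and to between 898 and 2052 CPM in MCL-like primaries (median 1636). The sums were 739 and 546 CPM in the Ccnd2 non-MCL transplants, 885 to 1380 CPM in Ccnd2 non-MCL primaries (median 1045) and 342 to 1488 CPM in p53-only primaries (median 916). The Ccnd2 non-MCL transplants lay below the primaries of both Ccnd2 groups, the other groups overlapped, and the lowest sums were in p53-only primaries. Trim30a, a regulator of innate immune signalling, had the highest median over the 22 libraries at 129 CPM, with Sp100, a nuclear body protein, at 128 CPM. Oas1a, a synthetase of the 2-5A messenger, had the lowest at 0.454 CPM and was at 0 in 5 libraries. A count was present in every library for 28 of the genes, and 18 had a median of 10 CPM or more. Rsad2 (viperin) varied most, from 0.824 CPM in p53-only replicate 4 to 753 CPM in MCL-like transplant replicate 1, a range of 8.69 on the log2(CPM + 1) scale. Eif2ak2 (the kinase PKR, which halts translation) varied least, from 8.78 to 34.5 CPM, a range of 1.86 on that scale. On it, 24 of the 36 genes spanned more than 10-fold. Ccnd2 non-MCL primary replicate 1 held the highest of the 22 levels for 9 genes, and p53-only replicate 5 did for 8.

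**Figure D1:**
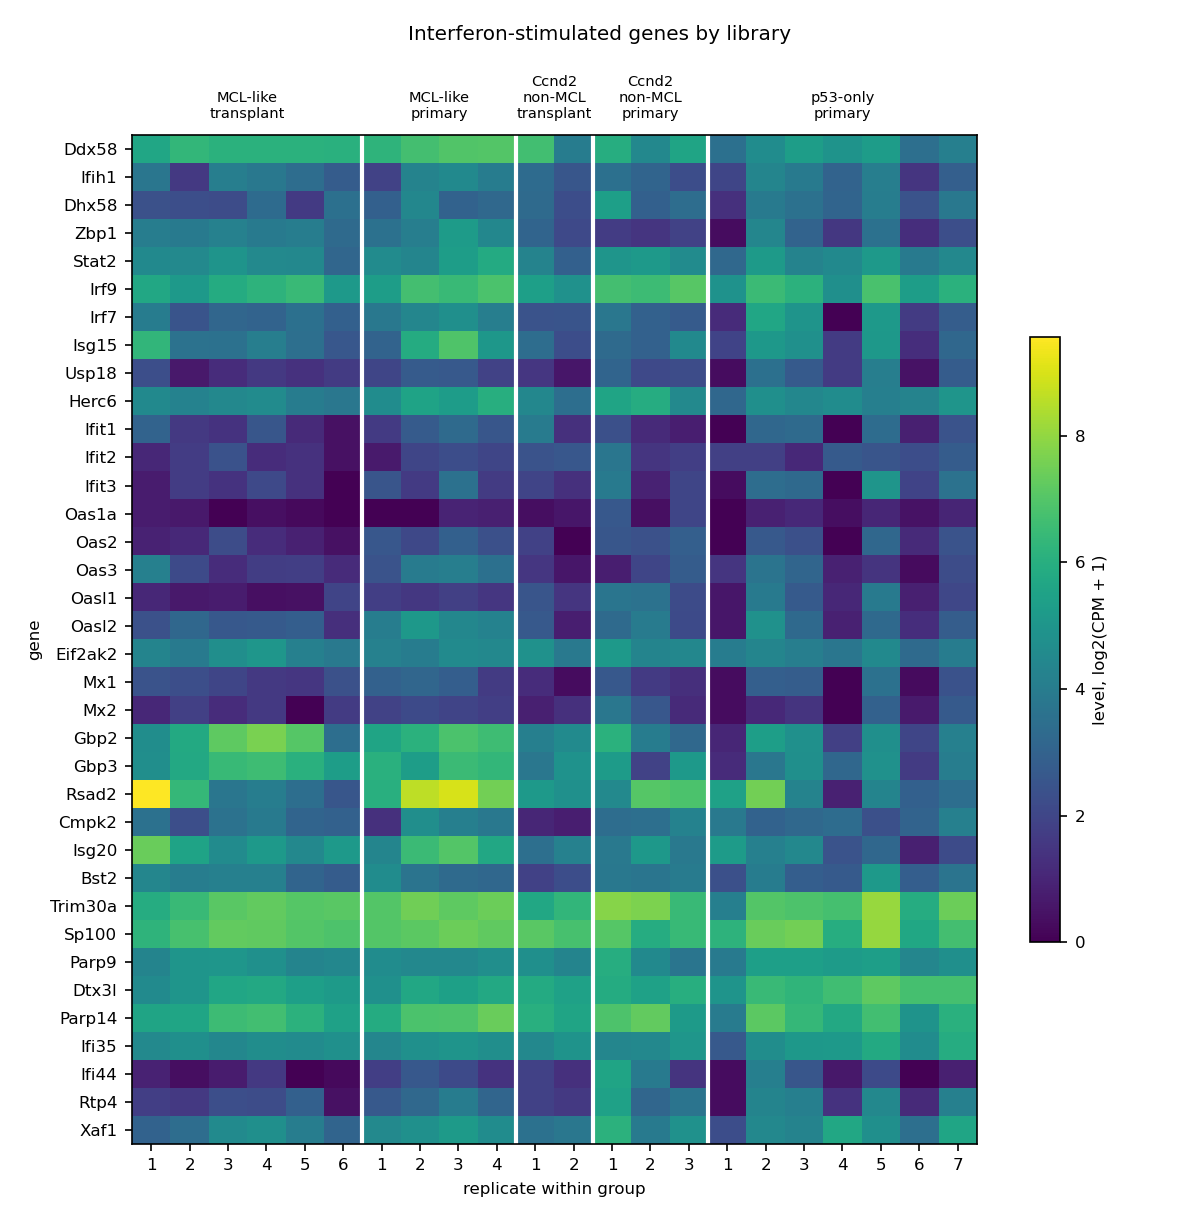
Heat map of the 36 genes (rows, ordered by role) in the 22 libraries (columns, by group and replicate), coloured by level on the log2(CPM + 1) scale. Trim30a and Sp100 have the highest medians, Oas1a is low throughout, and Rsad2 runs from 0.824 to 753 CPM.

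The signal carriers were present in nearly every library. Stat2 had a lowest, median and highest level of 7.91, 21.7 and 29.5 CPM in MCL-like transplants, and 23.2, 19.6, 39.2 and 55.9 CPM in the 4 MCL-like primaries. Its levels were 18.5 and 6.61 CPM in the Ccnd2 non-MCL transplants, 30.4, 35.1 and 23.3 CPM in Ccnd2 non-MCL primaries, and 8.37, 21.2 and 35.8 CPM (lowest, median, highest) in p53-only primaries. For Stat2 the pair of Ccnd2 non-MCL transplants lay below the primaries of both Ccnd2 groups, and the other groups overlapped. Irf9, the DNA-binding partner of Stat2, had 33.9, 55.0 and 88.9 CPM (lowest, median, highest) in MCL-like transplants and 39.0, 102, 88.6 and 116 CPM in MCL-like primaries. It had 41.3 and 27.4 CPM in the Ccnd2 non-MCL transplants, 104, 93.2 and 133 CPM in Ccnd2 non-MCL primaries, and 26.4, 68.3 and 112 CPM in p53-only primaries. For Irf9 the pair of Ccnd2 non-MCL transplants lay below all 3 Ccnd2 non-MCL primaries. Irf7, the factor that amplifies type I interferon, had 4.52, 7.54 and 15.2 CPM in MCL-like transplants and 13.1, 20.0, 26.3 and 16.1 CPM in MCL-like primaries. It had 4.50 and 4.57 CPM in the Ccnd2 non-MCL transplants, 12.99, 6.89 and 5.77 CPM in Ccnd2 non-MCL primaries, and 0, 6.04 and 48.9 CPM in p53-only primaries. Irf7 was thus both at its highest and at 0 within the p53-only group. Usp18, which removes ISG15 and damps the receptor, had 0.565, 1.76 and 3.96 CPM in MCL-like transplants and 2.97, 5.70, 5.38 and 2.69 CPM in MCL-like primaries. It had 1.85 and 0.508 CPM in the Ccnd2 non-MCL transplants, 7.43, 3.30 and 3.68 CPM in Ccnd2 non-MCL primaries, and 0.254, 5.47 and 16.0 CPM in p53-only primaries. Usp18 levels near the limit of a 0 count carry a large counting error.

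Among the effectors, Isg15, a ubiquitin-like modifier, had 5.03, 11.1 and 77.8 CPM (lowest, median, highest) in MCL-like transplants and 7.14, 57.2, 121 and 32.5 CPM in MCL-like primaries. It had 9.79 and 3.81 CPM in the Ccnd2 non-MCL transplants, 8.91, 6.89 and 22.2 CPM in Ccnd2 non-MCL primaries, and 1.40, 8.18 and 33.4 CPM in p53-only primaries. A single transplant, replicate 1, and MCL-like primary replicates 2 and 3 lay above every other library for Isg15. Ifit1, which binds RNA without the host's cap, had 0.359, 1.81 and 7.25 CPM in MCL-like transplants and 2.08, 5.70, 8.86 and 4.84 CPM in MCL-like primaries. Its levels were 14.8 and 1.52 CPM in the Ccnd2 non-MCL transplants, 4.08, 1.20 and 0.737 CPM in Ccnd2 non-MCL primaries, and 0, 4.48 and 9.54 CPM in p53-only primaries. The highest Ifit1 level of all was in 1 transplant of the Ccnd2 non-MCL tumour, whose other transplant lay below most primaries. Mx1, an antiviral GTPase, had 1.89, 3.45 and 4.39 CPM in MCL-like transplants and 6.84, 8.02, 6.33 and 2.15 CPM in MCL-like primaries. It had 1.32 and 0.254 CPM in the Ccnd2 non-MCL transplants, 5.20, 2.10 and 1.47 CPM in Ccnd2 non-MCL primaries, and 0, 4.28 and 10.9 CPM in p53-only primaries. Mx1 was lowest in the Ccnd2 non-MCL transplants, apart from p53-only libraries, and the other groups overlapped at these low levels. Bst2 (tetherin, which holds budding virus at the membrane) had 5.93, 16.1 and 19.8 CPM in MCL-like transplants and 23.8, 11.8, 8.86 and 8.06 CPM in MCL-like primaries. It had 2.65 and 3.81 CPM in the Ccnd2 non-MCL transplants, 13.4, 12.3 and 14.7 CPM in Ccnd2 non-MCL primaries, and 4.06, 6.33 and 34.4 CPM in p53-only primaries. The Ccnd2 non-MCL transplants held the lowest Bst2 levels of all libraries. Eif2ak2 had 13.5, 17.9 and 31.5 CPM in MCL-like transplants and 17.2, 15.2, 23.1 and 21.0 CPM in MCL-like primaries. It had 27.2 and 13.5 CPM in the Ccnd2 non-MCL transplants, 34.5, 18.9 and 20.7 CPM in Ccnd2 non-MCL primaries, and 8.78, 15.2 and 22.1 CPM in p53-only primaries.

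The first comparison asks which of the genes differ between MCL-like tumours growing in NSG mice and the primary tumours they came from. It rests on 3 mice with both kinds of library, with transplant libraries of a mouse summed and the mouse as a block in the fit. None of the 33 genes tested was called at an adjusted p under 0.05 by edgeR's quasi-likelihood test with Benjamini-Hochberg adjustment over 12020 genes, and over all genes 0 (0%) were called. At an unadjusted p under 0.05 the test gave 656 genes in all. Ifi44, Oas1a and Oasl1 had too few counts to be tested. At that unadjusted level 4 members were lower, where 3.06% of all genes tested were lower, and 0 were higher. DESeq2 called 29 genes (0.244% of those it tested) and none of the members.

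Oasl2, an Oas-like antiviral protein, had 1.44, 5.41 and 8.19 CPM (lowest, median, highest) in MCL-like transplants and 15.5, 33.5, 20.6 and 18.0 CPM in MCL-like primaries, so the groups did not overlap. In the 3 mice its level, scaled between libraries by the TMM method, averaged 4.44 ± 2.56 CPM in transplants and 21.9 ± 10.6 CPM in primaries (SD, n = 3 each), a log2 fold change of -2.30 with an SE of 0.69 (adjusted p = 0.82 by edgeR, unadjusted p = 0.0127). Herc6, the ligase that attaches ISG15 in mice, had 12.8, 19.5 and 23.3 CPM in MCL-like transplants and 24.4, 45.4, 37.7 and 62.3 CPM in MCL-like primaries. These did not overlap either, and the paired log2 fold change was -1.09 (SE 0.35, adjusted p = 0.82 by edgeR). Parp14, an ADP-ribosyl transferase, had 43.3, 58.6 and 101 CPM in MCL-like transplants and 58.0, 113, 116 and 165 CPM in MCL-like primaries, with a log2 fold change of -0.71 (SE 0.31). Rtp4, a chaperone of receptor transport, had 0.359, 3.01 and 6.69 CPM in MCL-like transplants and 5.35, 8.44, 15.2 and 7.79 CPM in MCL-like primaries, with a log2 fold change of -1.90 (SE 0.82). Over all MCL-like libraries the Parp14 and Rtp4 levels of transplants and primaries overlapped. In the 3 paired mice those of Rtp4 did not, at up to 3.90 TMM-scaled CPM in transplants and at least 6.02 in primaries. Irf7, Oas2 and Ddx58 were also lower without overlap in those mice, and 0 members were higher without overlap. The share of all genes without overlap was not counted in this comparison. Whether the members stand out in this therefore cannot be said. The adjusted p-values of Parp14 and Rtp4 were both 0.82 by edgeR. All 4 genes were lower in the transplant in each of the 3 mice.

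Over the 33 genes tested, 6 had a positive and 27 a negative log2 fold change, where 50.4% of all genes tested were positive. Their median was -0.56, and that of all genes 0.01. Lower in all 3 mice were 11 of the 33, where 15% of all genes were, and 1 (Ifi35, chosen for naming after its value was seen) was higher in all 3, where 14.2% were. The 3 mice were unlike in this. In the mouse of MCL-like primary replicate 2, 31 of the 33 were lower in the transplant, with a median log2 ratio of -1.33. In the mouse of replicate 1, 22 were lower and 11 higher (median -0.32), and in that of replicate 4, 18 were lower and 15 higher (median -0.02). Without the mouse of replicate 2 the median of the fit was -0.19, and Oasl2 and Rtp4 were at -1.41 and -1.002.

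**Figure D2:**
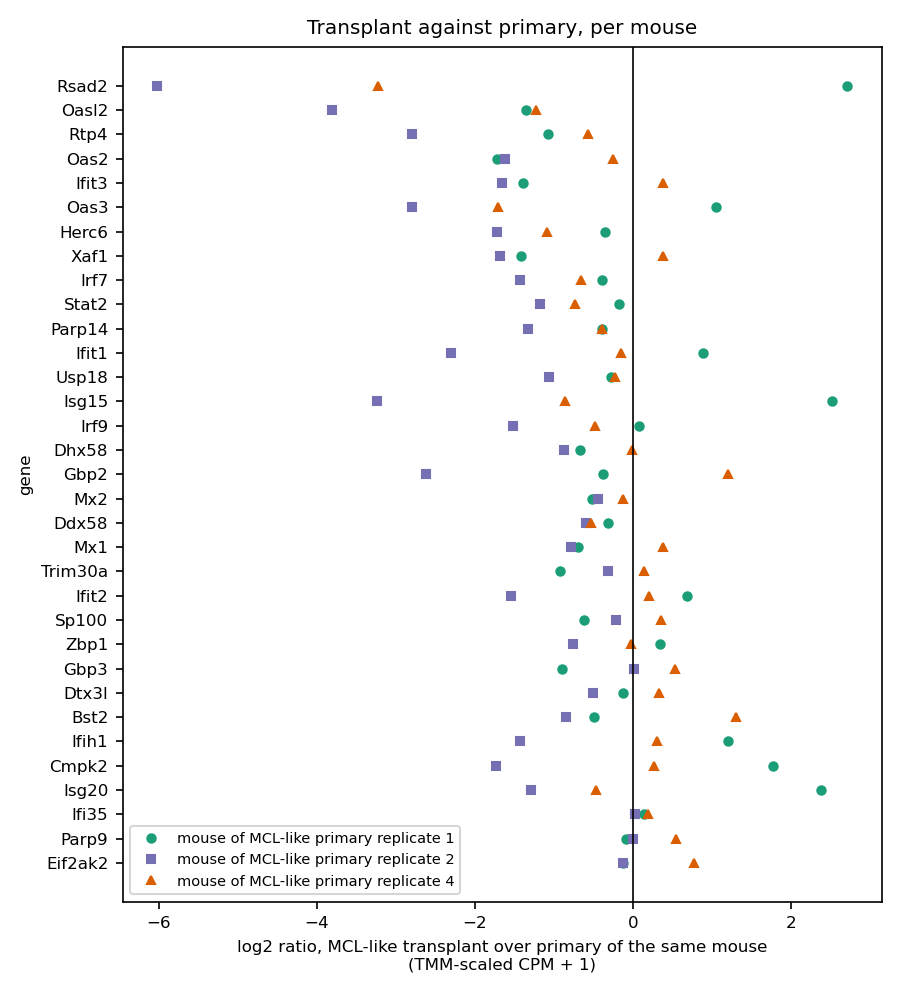
Log2 ratio of the transplant over the primary of the same mouse (x axis, TMM-scaled CPM + 1) for the 33 genes tested (y axis), with a symbol for each of the 3 mice. The squares, for the mouse of MCL-like primary replicate 2, lie furthest to the left for most genes, with 31 of 33 below 0, while the circles and triangles scatter on both sides.

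Genes differed in sign between mice. Rsad2 was at 480.8 TMM-scaled CPM in the transplants of the replicate 1 mouse, against 72.3 in its primary. In the mouse of replicate 2 it was at 5.07 in the transplant and 392 in the primary, and in that of replicate 4 at 14.6 in the transplants and 145 in the primary. Its log2 fold change of -2.80 therefore had an SE of 3.28 (adjusted p = 0.882 by edgeR). Isg15 likewise had 51.0, 5.26 and 13.9 TMM-scaled CPM in the transplants of those mice and 8.03, 58.0 and 26.0 in the primaries, for a log2 fold change of -0.67. Of the other genes given throughout, the log2 fold changes were -0.89 for Irf7, -0.73 for Stat2, -0.70 for Ifit1 and Usp18, -0.64 for Irf9, -0.49 for Ddx58, -0.43 for Mx1, -0.03 for Bst2 and 0.19 for Eif2ak2, with adjusted p-values of 0.82 to 0.99 by edgeR.

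The wider pathway had no call in this comparison. Irf1, a factor induced by interferon gamma, was at -0.82, Ifngr1 at -0.69, Ifnar1 at -0.36, Jak1 at -0.24, Tyk2 at -0.22 and Ifnar2 at -0.16 on the log2 fold change scale, with adjusted p-values of 0.82 to 0.92 by edgeR. Among 54 further interferon-induced genes tested, 11 had a positive and 43 a negative log2 fold change (median -0.50). Markers of T cells summed to between 187 and 410 CPM in MCL-like transplants and 486 and 726 CPM in MCL-like primaries, and 10 of 11 had a negative log2 fold change (median -2.52). NK markers summed to between 1.62 and 28.5 CPM in MCL-like transplants and 28.8 and 183 CPM in MCL-like primaries, and the 5 tested were all negative. Macrophage markers summed to between 253 and 684 CPM in MCL-like transplants and 707 and 1347 CPM in MCL-like primaries, and erythroid markers to between 276 and 118754 CPM in transplants and 23363 and 111105 CPM in primaries. No T cell or erythroid marker in the table was at 0 throughout either group. The part of these cells in the lower values was not tested, and in bulk RNA fewer cells of a type and less RNA per cell cannot be told apart.

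Interferon gamma was the only ligand with enough counts to test. Ifng had 0, 1.48 and 3.61 CPM (lowest, median, highest) in MCL-like transplants and 0.892, 6.12, 6.96 and 7.52 CPM in MCL-like primaries. It had 0 and 0.254 CPM in the Ccnd2 non-MCL transplants, 0, 0 and 0.246 CPM in Ccnd2 non-MCL primaries, and 0, 0.549 and 6.93 CPM in p53-only primaries. Its log2 fold change in the paired comparison was -2.47 (adjusted p = 0.82 by edgeR). Ifnb1 and the other type I and type III interferon genes looked up, Ifna1, Ifna2, Ifna4, Ifna5, Ifnab, Ifne, Ifnz and Ifnl2, were at 0 counts in all 22 libraries, apart from Ifnk and Ifnl3. Ifnk had 1 or 2 counts in 6 libraries spread over all 5 groups, at most 0.537 CPM, and Ifnl3 had 1 count in 1 library.

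The second comparison asks which of the genes differ with the MCL-like immunophenotype among primary tumours, 4 MCL-like against 9 non-MCL mice. Of 35 genes tested, 1 was called, Ddx58, where 5.52% of 12967 genes were called and 2.84% were called higher. Ddx58 (RIG-I, ENSMUSG00000040296, chr4:40203773-40239828 on the minus strand of GRCm38) is a cytosolic sensor of viral RNA. It had 72.6, 102, 125 and 128 CPM in MCL-like primaries, 61.6, 21.3 and 47.5 CPM in Ccnd2 non-MCL primaries, and 10.4, 23.8 and 39.4 CPM (lowest, median, highest) in p53-only primaries. Each MCL-like primary lay above each non-MCL primary. The means were 111 ± 19.4 TMM-scaled CPM (SD, n = 4) in MCL-like and 28.8 ± 17.1 (n = 9) in non-MCL primaries, a log2 fold change of 1.95 with an SE of 0.40 (adjusted p = 0.0149 by edgeR). The adjusted p was 0.0549 without MCL-like primary replicate 3, 0.0604 without the 5 libraries whose names begin with oTP, all non-MCL primaries, and 0.0973 with spleen tumours alone, while the log2 fold change stayed between 1.83 and 2.16. In the transplants Ddx58 had 49.0, 67.8 and 79.4 CPM (MCL-like; lowest, median, highest) and 99.5 and 15.2 CPM (Ccnd2 non-MCL).

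At an unadjusted p under 0.05 the members numbered 9 higher, where 10.4% of all genes tested were higher, and 1 lower. The groups of mice did not overlap for 2 members, Ddx58 and Gbp3, where 2.44% of all genes were higher without overlap. A positive log2 fold change was found for 23 and a negative one for 12, where 43.9% of all genes were positive. The members' median was 0.55, and that of all genes -0.13. DESeq2 called 7 of the 36 members (19.4%), all higher, where it called 11.9% of all genes it tested, 1813 in all, with Zbp1 (adjusted p = 0.0134), Gbp3 (0.0192) and Isg20 (0.0216) among the members.

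Zbp1, a sensor of Z-form nucleic acids that can trigger cell death, had 10.7, 16.0, 37.0 and 20.7 CPM in MCL-like primaries, 2.23, 1.80 and 2.70 CPM in Ccnd2 non-MCL primaries, and 0.254, 3.89 and 19.8 CPM (lowest, median, highest) in p53-only primaries. It was low in all 3 Ccnd2 non-MCL primaries, and p53-only replicate 2 reached the MCL-like range. The log2 fold change against all non-MCL primaries was 2.35 (SE 0.70, adjusted p = 0.0599 by edgeR). Gbp3, a guanylate-binding protein induced by interferon gamma, had 66.0, 39.5, 90.5 and 80.3 CPM in MCL-like primaries, 37.1, 2.70 and 34.2 CPM in Ccnd2 non-MCL primaries, and 1.27, 12.7 and 27.2 CPM in p53-only primaries. The lowest MCL-like value stood just above the highest non-MCL one, and the log2 fold change was 2.21 (SE 0.67, adjusted p = 0.0637 by edgeR). Isg20, an RNA exonuclease, had 19.3, 90.5, 127 and 51.6 CPM in MCL-like primaries, 13.7, 33.0 and 13.7 CPM in Ccnd2 non-MCL primaries, and 0.798, 8.17 and 37.3 CPM in p53-only primaries. MCL-like replicate 1 lay within the non-MCL range, and the log2 fold change was 2.26 (SE 0.69, adjusted p = 0.0668 by edgeR).

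**Figure D3:**
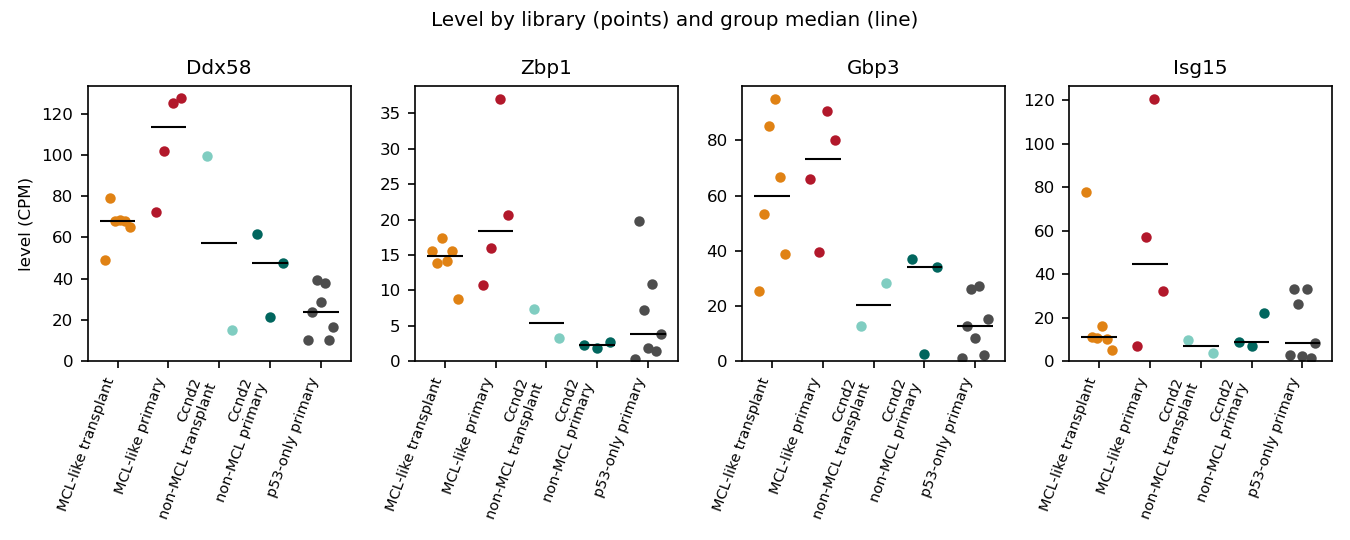
Levels in CPM (y axis, from 0) of Ddx58, Zbp1, Gbp3 and Isg15 in the 22 libraries, with a point per library, the 5 groups along the x axis and a line at each group's median. The MCL-like primaries of Ddx58, between 72.6 and 128 CPM, lie above all non-MCL primaries, while in Zbp1 and Isg15 the MCL-like and p53-only primaries overlap.

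Isg15 averaged 57.0 ± 52.5 TMM-scaled CPM in MCL-like (n = 4) and 12.3 ± 11.8 in non-MCL primaries (n = 9), a log2 fold change of 2.20 with an SE of 0.75 (adjusted p = 0.0906 by edgeR). Rsad2, an enzyme that makes a chain-terminating nucleotide, had 64.2, 386, 509 and 181 CPM in MCL-like primaries, 21.5, 129 and 114 CPM in Ccnd2 non-MCL primaries, and 0.824, 18.1 and 182 CPM in p53-only primaries. Its log2 fold change was 2.53 (SE 0.87, adjusted p = 0.091 by edgeR), the highest of the 35, and the groups overlapped. Gbp2, Oas3 and Oasl2 had log2 fold changes of 2.10, 1.73 and 1.68 (adjusted p = 0.103, 0.138 and 0.157 by edgeR). Dtx3l, a ubiquitin ligase that pairs with Parp9, was the member lower at the unadjusted level, with 45.5 ± 10.2 TMM-scaled CPM in MCL-like and 74.4 ± 28.2 in non-MCL primaries, a log2 fold change of -0.71 (adjusted p = 0.195 by edgeR). For Mx1, Ifit1, Irf7, Stat2, Bst2, Irf9, Eif2ak2 and Usp18 the log2 fold changes were 1.06, 0.80, 0.70, 0.64, 0.46, 0.31, 0.18 and -0.01. Their adjusted p-values ran from 0.27 to 0.996 by edgeR.

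**Figure D4:**
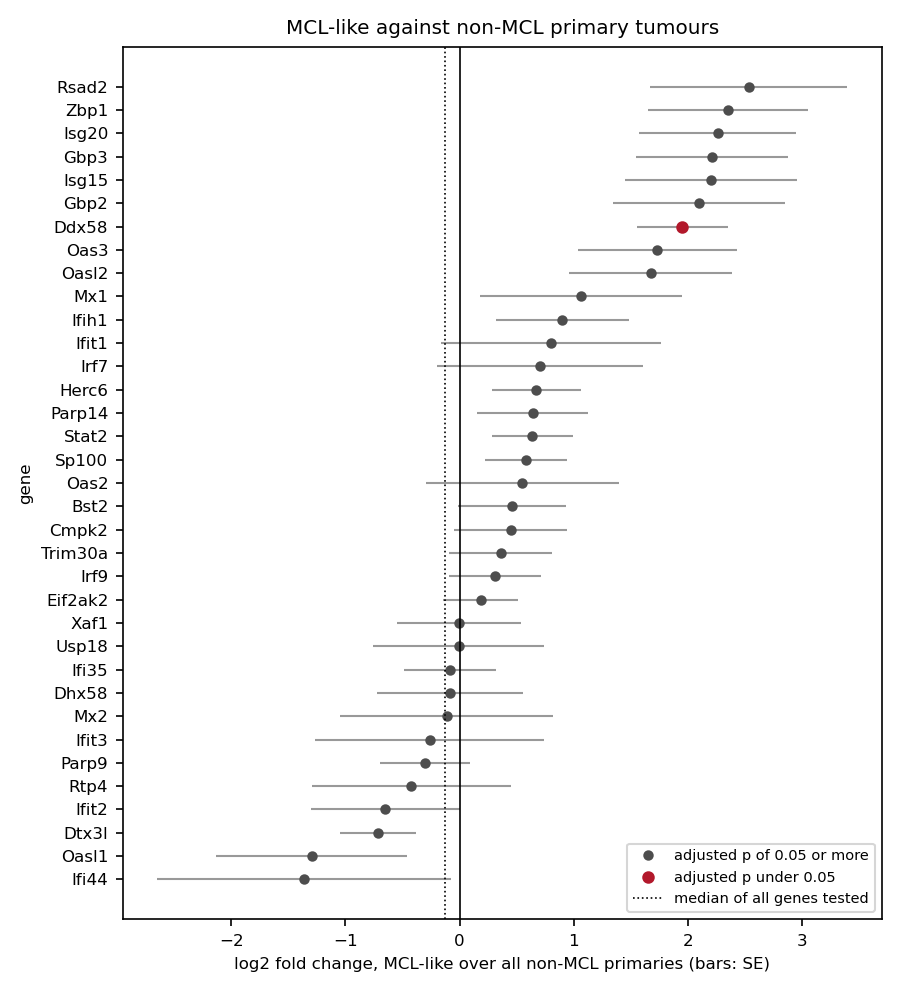
Log2 fold change of MCL-like over all non-MCL primaries (x axis; bars are SE) for the 35 genes tested (y axis), with the called gene in red and a dotted line at the median of all genes, -0.13. Ddx58, at 1.95 with an SE of 0.40, has the narrowest bar among the 9 genes at the top.

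Of the other pathway genes, 3 of 55 further interferon-induced genes were called higher and 1 lower in MCL-like primaries. Of all genes tested, 2.84% were called higher and 5.52% were called in either direction. Calls higher were also made for 2 of 13 sensors and adaptors, 1 of 6 regulatory factors and 1 of 14 class I presentation genes, and 0 calls were made among 11 receptor and Jak-Stat genes, 12 negative regulators and 4 chemokines. Cd274 (PD-L1, a ligand that restrains T cells) had 24.7, 19.8, 63.3 and 62.9 CPM in MCL-like primaries, 4.08, 2.70 and 9.94 CPM in Ccnd2 non-MCL primaries, and 1.52, 7.78 and 14.4 CPM (lowest, median, highest) in p53-only primaries. The groups did not overlap, where 2.44% of all genes were higher without overlap. The log2 fold change was 2.70 (SE 0.46, adjusted p = 0.00817 by edgeR). Tlr7, the endosomal sensor of single-stranded RNA, had 22.3, 24.5, 63.3 and 21.0 CPM in MCL-like primaries, 5.20, 1.80 and 10.6 CPM in Ccnd2 non-MCL primaries, and 0.998, 5.94 and 14.3 CPM in p53-only primaries. This was again without overlap, with a log2 fold change of 2.69 with an SE of 0.60 (adjusted p = 0.0225 by edgeR). Pml, of nuclear bodies, was also called higher, at 1.69, as were Tapbp, which loads class I molecules, at 1.33, and the guanylate-binding Gbp5 at 2.35 (adjusted p = 0.0362, 0.0367 and 0.0394 by edgeR). Lgals9, a galectin, fell to 31.5 ± 20.7 TMM-scaled CPM in MCL-like primaries (n = 4), against 206 ± 114 in non-MCL primaries (n = 9), a log2 fold change of -2.70 with an SE of 0.67 (adjusted p = 0.0345 by edgeR).

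On the log2 fold change scale Irf1 was at 1.02 (adjusted p = 0.148), Ifng at 2.53 (adjusted p = 0.169), Tyk2 at 0.51, Jak1 at 0.29, Ifnar1 at 0.12, Ifngr1 at -0.16 and Ifnar2 at -0.42, none of them called by edgeR. T cell markers summed to between 486 and 726 CPM in MCL-like primaries, 33.9 and 143 CPM in Ccnd2 non-MCL primaries, and 5.22 and 748 CPM in p53-only primaries. Erythroid markers summed to between 23363 and 111105 CPM in MCL-like primaries, 3139 and 32390 CPM in Ccnd2 non-MCL primaries, and 88.7 and 38588 CPM in p53-only primaries. The 11 T cell markers (median log2 fold change 1.52) and the 7 erythroid markers (2.26) all had positive log2 fold changes against non-MCL primaries, none called, and none was at 0 throughout a group. Markers of plasmacytoid dendritic cells, which make type I interferon, summed to between 695 and 1872 CPM in MCL-like primaries, 297 and 670 CPM in Ccnd2 non-MCL primaries, and 154 and 639 CPM in p53-only primaries, without overlap. Of these markers 5 were tested, 4 were positive (median of all 5 at 1.999), and 1 was called, Tcf4, a factor that B cells also express. The 1 negative marker had a log2 fold change of -4.90, at an unadjusted p under 0.05 by edgeR. NK markers summed to between 28.8 and 183 CPM in MCL-like primaries, 11.9 and 93.3 CPM in Ccnd2 non-MCL primaries, and 6.09 and 461 CPM in p53-only primaries, and 5 of 6 tested were positive (median 1.41). Macrophage markers summed to between 707 and 1347 CPM in MCL-like primaries, 471 and 1640 CPM in Ccnd2 non-MCL primaries, and 229 and 1565 CPM in p53-only primaries, and 8 of 12 were positive (median 0.30). Of 9 B cell markers, 6 were positive and 3 negative (median 0.81), and 2 were called higher, where 2.84% of all genes tested were. The part of all these cells in the members' differences was not tested.

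Within the transgenic genotype, 4 MCL-like primaries were set against 3 Ccnd2 non-MCL primaries, in a fit that also holds the p53-only mice. None of the 35 members tested was called by edgeR's quasi-likelihood test, where 0.308% of all genes (40) were, and DESeq2 called 1 member, where it called 6.14% of all genes it tested. Zbp1, at 22.1 ± 11.9 TMM-scaled CPM in MCL-like (n = 4) and 2.16 ± 0.357 in Ccnd2 non-MCL primaries (n = 3), had a log2 fold change of 3.33 with an SE of 1.04 (adjusted p = 0.129 by edgeR). Ddx58, at 111 ± 19.4 against 42.1 ± 20.4, had one of 1.40 (SE 0.50, adjusted p = 0.169 by edgeR). With the p53-only mice left out of the fit, Zbp1 alone of the members was called (adjusted p = 0.0186 by edgeR). Those 2 genes made up the members higher at an unadjusted p under 0.05, where 6.2% of all genes were higher. The members next in order of p were Isg15, at 57.0 ± 52.5 against 12.0 ± 7.30 (log2 fold change 2.22, adjusted p = 0.341 by edgeR), and Oasl1, which limits Irf7 translation, at 2.32 ± 0.536 against 8.82 ± 4.86 (log2 fold change -1.91, adjusted p = 0.342 by edgeR). The groups did not overlap for 6 members that were higher, where 7.58% of all genes were, and for Oasl1, which was lower, where 9.06% were. Of the members, 21 had a positive and 14 a negative log2 fold change, where 47.8% of all genes were positive, with a median of 0.21 against -0.04 over all genes. Without Ccnd2 non-MCL primary replicate 1 the members' median was 0.53, with spleen tumours alone 0.56, and with scaling by library size 0.07. No pathway gene was called: Irf1 was at 1.15, Ifnar1 at -0.34, Ifnar2 at -0.53, Ifngr1 at -0.58, Jak1 at 0.26, Tyk2 at 0.25 and Ifng at 5.30 on the log2 fold change scale. The 11 T cell markers (median 3.14), the 7 erythroid markers (1.66) and the 5 plasmacytoid dendritic cell markers tested (2.90) all had positive log2 fold changes, as did 5 of 6 NK markers (median 1.70) and 9 of 12 macrophage markers (0.33), none called. Their part was not tested.

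Between non-MCL primaries that differ by the transgene, 3 Ccnd2 and 6 p53-only mice, none of 35 members was called, and over all genes 0 (0%) were called by edgeR's quasi-likelihood test, with 1330 at an unadjusted p under 0.05 and 129 (0.917%) called by DESeq2, none of them a member. At the unadjusted level 3 members were higher, where 5.66% of all genes were, and 0 lower. Herc6 had 47.1, 58.7 and 21.4 CPM in Ccnd2 non-MCL primaries and 8.12, 20.4 and 31.0 CPM (lowest, median, highest) in p53-only primaries, a log2 fold change of 1.02 with an SE of 0.39 (adjusted p = 0.417 by edgeR). Irf9, with the levels given above, had one of 0.96 (SE 0.41, adjusted p = 0.454 by edgeR), and Ddx58 one of 0.93 (SE 0.43, adjusted p = 0.487 by edgeR). Ifi44, a protein with antiproliferative activity, had 46.4, 13.8 and 1.72 CPM in Ccnd2 non-MCL primaries and 0, 0.779 and 16.7 CPM in p53-only primaries, a log2 fold change of 2.64 with an SE of 1.18 (adjusted p = 0.47 by edgeR). Without the mediastinal Ccnd2 replicate 1 it was at 1.19, and with spleen tumours alone, which leaves out that library and p53-only replicates 4 to 7, at -0.040 (adjusted p = 0.991 by edgeR). Of the 35, 24 were positive and 11 negative, where 47.4% of all genes were positive. The members' median was 0.54 against -0.04 over all genes, without Ccnd2 replicate 1 it was 0.14, and with spleen tumours alone -0.07. The T cell markers were all negative and the erythroid markers all positive here (medians -1.39 and 0.94), none called, and their part was not tested. Irf1 was at -0.18, Ifnar1 at 0.76, Ifnar2 at 0.16, Ifngr1 at 0.69, Jak1 at 0.06, Tyk2 at 0.42 and Ifng at -3.26 on the log2 fold change scale, with adjusted p-values of 0.523 to 0.965 by edgeR.

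The 2 Ccnd2 non-MCL transplants came from 1 mouse with no primary library, so no test was made. In them 25 of the 36 genes were higher in replicate 1 than in replicate 2, with a median log2 ratio of 0.50 (CPM + 1) and 9 genes more than 2-fold apart. Ifit1 was furthest apart, at 2.65, and Gbp3 lay the other way at -1.09. Pairs of libraries of 1 mouse elsewhere differed by like amounts. Between MCL-like transplant replicates 1 and 2, from the same primary, 11 genes were more than 2-fold apart, led by Rsad2 at 3.20. Between replicates 3 and 4 there were 3 such genes. Between p53-only replicates 2 and 5, a spleen and another lymphoma of 1 mouse, there were 10, again led by Rsad2 at 3.22. Median absolute log2 ratios in these 4 pairs were 0.60, 0.59, 0.30 and 0.63.

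Rsad2 and Isg20 tended to rise with the erythroid marker sum across libraries, a relation looked for after the values had been seen. The permutation p-values below are adjusted over 36 genes and not for the choice of this marker list. They describe the relation and are no test of it in independent data. In MCL-like transplant replicate 1, where the sum was 118754 CPM, Rsad2 was at 753 and Isg20 at 165 CPM, both the highest of 22. In its partner from the same primary, where the sum was 10830 CPM, Rsad2 was at 81.1 and Isg20 at 45.2 CPM. In p53-only replicates 2 and 5, of 1 mouse, the sums were 16814 and 658 CPM and Rsad2 was at 182 and 18.7 CPM. Across the 13 primary mice Pearson's r for Rsad2, on the log2(CPM + 1) scale, was 0.91 (permutation p = 6e-05, adjusted over 36 genes 0.00216) and Spearman's rho 0.83 (permutation p = 0.00076, adjusted 0.0274). It was 0.86 without the 2 mice furthest from the median sum, and 0.904 within the 9 non-MCL mice (exact permutation p = 0.00147). For Isg20 r was 0.739 (permutation p = 0.0034, adjusted 0.0612) and rho 0.775 (permutation p = 0.00252, adjusted 0.0302), with r = 0.871 without the 2 furthest mice and 0.615 within the non-MCL mice (exact permutation p = 0.0775). Dtx3l ran the other way, with r = -0.722 (permutation p = 0.00514, adjusted 0.0617) and rho = -0.791 (permutation p = 0.00197, adjusted 0.0302), with r = -0.746 without the 2 furthest mice and -0.665 within the non-MCL mice (exact permutation p = 0.0507). For the other 33 genes the adjusted p of r was 0.377 or more (permutation test). The sum and each gene are shares of the same library total, and the MCL-like primaries are high in the sum as a group.

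**Figure D5:**
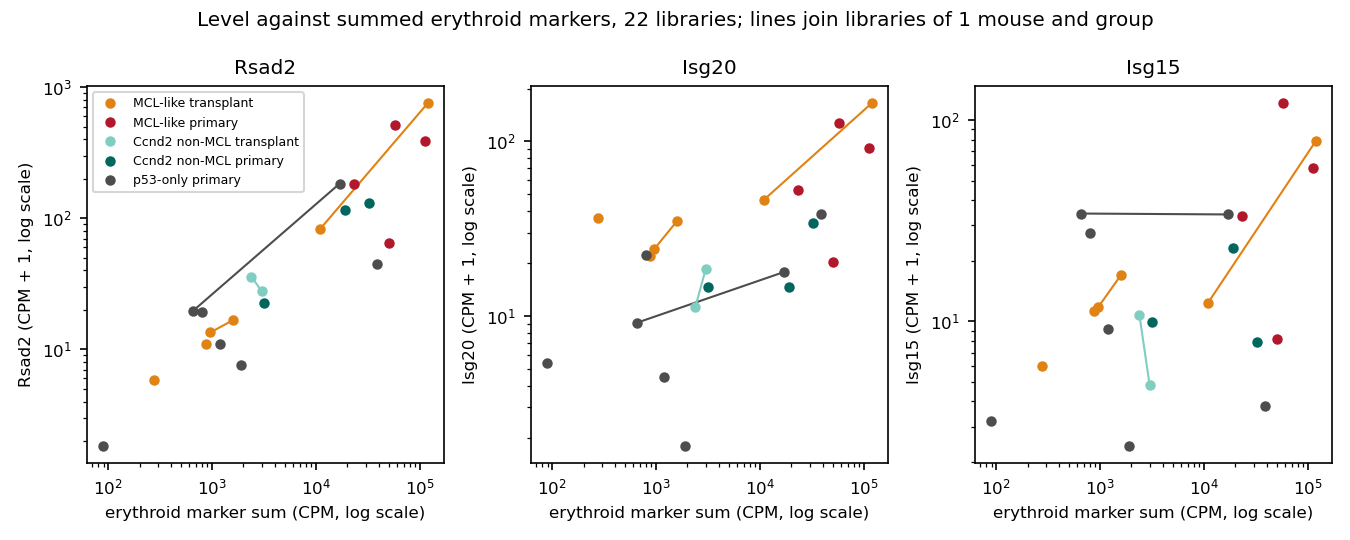
Level (y axis, CPM + 1, log scale) of Rsad2, Isg20 and Isg15 against the summed erythroid markers of the same library (x axis, CPM, log scale), with a point for each of the 22 libraries, coloured by group, and lines joining libraries of 1 mouse and group. Rsad2 tends to rise with the sum, with 753 CPM at a sum of 118754 CPM, while Isg15 scatters. The order does not hold throughout. MCL-like primary replicate 1, at a sum of 50388 CPM, had the lowest Rsad2 of its group (64.2 CPM), where the lowest sum was 23363 CPM.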

How the data were processed

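RNA of fresh lymphoma cells was isolated with QIAZOL and a miRNeasy kit and made into QuantSeq 3′ reverse libraries, per the labels' protocols. The submitters' processing notes name FastQC, STAR and GRCm38. How strands were counted, by which tool and on which annotation, is not given in the sources used here, so overlapping or antisense genes and near-identical copies (Ifit3 and Oas1a among the members) are less certain. The values deposited for each Ensembl gene are raw counts, not normalized.

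Symbols came from GENCODE M21, which matched 52403 of 52636 identifiers. Libraries were grouped by genotype, immunophenotype label and tumour kind, and counts were summed per mouse and kind. Tests used R 4.3.3 with edgeR 4.0.16 (quasi-likelihood F test), filterByExpr for low counts, TMM scaling, robust shrinkage and Benjamini-Hochberg adjustment, and a call is an adjusted p under 0.05. Fold changes were not re-centred, and the median over all genes lay between -0.13 and 0.01 (log2). Transplants were paired with primaries by mouse, because the labels name each transplant's primary: within a mouse, deviations from the group means correlated at 0.231, 0.243 and 0.359 over 12020 genes. The 13 primary mice shared a fit of 3 groups, and a fit of 2 groups served MCL-like against all non-MCL. MCL-like primaries enter 3 comparisons, which therefore share mice. The fits were also run on simulated counts in which genes with many counts were changed by large known folds. Those runs do not measure how often smaller changes, or changes in low genes, would be called.

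The members and gene lists were chosen with earlier results of these data known. All 36 members are accounted for. Named were those called, or where fewer than 4 were called the 4 with the lowest p, 11 members and a set of pathway genes given throughout, of which 1 is not reported here, at most 5 called pathway genes per direction, and the members with the highest and lowest level and the widest and narrowest range. Mb21d1, Mnda and Ahsp were not found under these symbols. Alternatives were DESeq2 1.42.0, other scalings and filters, fits without the pairing, subsets of samples and leaving out each replicate.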

Additional observations from a re-analysis of the deposited data

Results flagged for a closer look

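Of 108 sets of mouse levels looked at, 6 held a mouse far from the others of its group, on the log2(CPM + 1) scale; chance flags about 1 in 20 such sets, which is close to this number. In 3 of them the mouse is that of MCL-like transplant replicate 6. Stat2 was at 7.91 CPM in that library, against 21.3 to 25.6 CPM in the other 3 transplant mice. Oasl2 was at 1.44 CPM there, against 5.41 to 6.18 CPM, and Zbp1 at 8.81 CPM, against 14.8 to 15.7 CPM. This library also had the lowest erythroid sum of the transplants, at 276 CPM, and its part was not tested. It belongs to the mouse of MCL-like primary replicate 2, in which 31 of 33 members were lower in the transplant. Mx2, of the Mx family of antiviral GTPases, was at 0 CPM in MCL-like transplant replicate 5, against 1.64 to 2.16 CPM. GENCODE M21 lists Mx2 as a polymorphic pseudogene. Trim30a was at 71.6 CPM in the summed transplants of replicates 1 and 2, against 130 to 145 CPM. Dtx3l was at 30.2 CPM in p53-only replicate 1, against 74.9 to 107 CPM in the other 5 p53-only mice.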

How the results depend on the processing

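The 24 results were recomputed under 468 alternatives in 32 settings. In MCL-like against all non-MCL primaries the number of members called, 1 as reported, was 7 with DESeq2, 0 without the oTP libraries, 0 with spleen tumours alone, and 0 to 2 when each replicate was left out: 0 without MCL-like primary replicate 3, and 2 without Ccnd2 non-MCL primary replicate 1 or 2, p53-only replicate 1 or the mouse of p53-only replicates 2 and 5. In MCL-like against Ccnd2 non-MCL primaries, 0 as reported, it was 1 with DESeq2 and 1 with only those 2 groups in the fit, Zbp1 both times. It was 0 under every alternative run of the transplant comparison and of Ccnd2 non-MCL against p53-only primaries, the fit with no replicate block for the mouse pairing (0 called, members' median -0.70) and the block fitted by library (0 called, median -0.50) included. With spleen tumours alone, which leaves out Ccnd2 non-MCL primary replicate 1, MCL-like primary replicate 1 and p53-only replicates 4 to 7, 2 values of Ccnd2 non-MCL against p53-only primaries turned direction, Ifi44 to -0.040 and the members' median to -0.07. The causes were not tested. The members' median in the transplant comparison ran from -0.82 to -0.19 when 1 mouse or replicate was left out, and in MCL-like against Ccnd2 non-MCL primaries from 0.17 to 0.53.

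Calls over all genes moved more. In MCL-like against all non-MCL primaries they were 716 as reported, 1813 with DESeq2, 519 without the low-count filter, 248 without the oTP libraries, 37 with spleen tumours alone and 176 to 1091 with each replicate left out (176 without MCL-like primary replicate 3). In MCL-like against Ccnd2 non-MCL primaries they were 40, 895 with DESeq2, 552 without the oTP libraries, 371 with only those 2 groups, 116 with spleen tumours alone, 22 with DESeq2's size factors and 0 to 54 with each replicate left out. In the transplant comparison they were 0, 29 with DESeq2, 35 without the filter, 7 with all 5 transplant and 13 primary mice, and 0 to 14 with each mouse or replicate left out. In Ccnd2 non-MCL against p53-only primaries they were 0, 129 with DESeq2, 116 without the oTP libraries, 41 with spleen tumours alone, 2 without the filter and 0 to 8 with each replicate left out.

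Depth limits the low genes: at a 3-count limit of 0.368 to 1.11 CPM, differences in members whose levels lie near it, such as Oas1a, were not detectable. With 3 or 4 mice in the smaller groups, and levels that differ up to several-fold between libraries of 1 mouse, a member that was not called is not shown to be alike in both groups. The MCL-like primaries also had the highest median sums of erythroid, T cell, NK, macrophage, plasmacytoid dendritic cell and B cell markers among primaries. The plasmacytoid dendritic cell sum includes Tcf4, which B cells also express. Of its 5 markers tested, 1 was lower in MCL-like than in all non-MCL primaries (log2 fold change -4.90). The immunophenotype and these marker sums cannot be told apart for the genes that move with both.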
